A study of Mus musculus with 4 samples.

Results

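A group of 37 lysosomal genes was followed in mouse bone marrow cells given a compound labelled R or its solvent. The genes were listed by name: 8 membrane proteins, 11 glycosidases and a sulfatase counted together, 7 lipid hydrolases, transfer and activator proteins, 1 peptidase with progranulin, 5 V-ATPase subunits, and 3 transcription factors of the TFEB family with the autophagy receptor Sqstm1. Cathepsins were left out of the list. All 37 were among the 54532 genes of the deposited table. The cells were called MSCs in the labels, came from digested bone marrow of CB6F1 mice, an F1 hybrid laboratory strain, and were grown in high-glucose DMEM with serum. Sample titles of both groups carry the term aGVHD. The R group (2 libraries) was given R at 0.5 µM (the labels spell the unit "um"), and the vehicle group (2 libraries) was given DMSO alone. Neither the identity of R nor the duration of treatment is in the labels, and nothing there says that replicates are separate animals or cultures. The p-values therefore measure only the spread between these libraries, which may be technical.

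Lysosomes are acidic organelles in which proteins, glycans and lipids taken up or recycled by the cell are broken down. The V-ATPase pumps protons into the lumen, the hydrolases work at that low pH, and heavily glycosylated membrane proteins line the organelle and carry its products out. TFEB, TFE3 and MITF are related transcription factors that switch on many lysosomal genes together by binding an E-box in their promoters, and are held in the cytoplasm by kinase signalling at the lysosome when nutrients are plentiful. In bone marrow, macrophages are rich in lysosomes, and stromal cells have them at lower density.

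The unit was FPKM, reads scaled by gene length and library depth, which allows levels of different genes to be compared. Recovered reads per library ranged from 16570419 to 18140519. The spread between replicates was wider for R than for vehicle, with an SD of log2 ratios over 12176 tested genes of 0.351 against 0.248. Macrophage transcripts were abundant in all 4 libraries: 28 macrophage and monocyte markers summed to 16556 and 12761 FPKM in R replicates 1 and 2 and 24042 and 21508 FPKM in vehicle replicates 1 and 2, and none of the 28 was at 0. Lyz2 made up a large part, and without it the sums were 7665 and 5700 FPKM in R and 9473 and 8968 FPKM in vehicle. The sum of 23 mesenchymal stromal cell markers was 2316 and 2404 FPKM in R and 1951 and 1928 FPKM in vehicle. Among 10 T and NK cell markers 8 were at 0 in every library, as were 6 of 10 neutrophil markers. Cd4 was at 6.35 and 6.57 FPKM in R and 8.14 and 8.13 FPKM in vehicle. Of 9 osteoclast markers 1, Calcr, was at 0 in every library, and Dcstamp, Ocstamp and Oscar were at no more than 0.239 FPKM in any. A mean of at least 1 FPKM was reached by 5. Ctsk was at 49.1 and 38.0 FPKM in R and 37.5 and 36.0 FPKM in vehicle. Mmp9 was at 9.11 and 9.51 FPKM in R and 3.33 and 3.94 FPKM in vehicle, and Itgb3 was also higher in R. Nfatc1 was at 7.42 and 9.66 FPKM in R and 9.74 and 10.5 FPKM in vehicle. Tnfrsf11a was at 6.36 and 8.31 FPKM in R and 8.11 and 7.83 FPKM in vehicle. The lysosomal genes were thus measured in a culture that held macrophage as well as stromal transcripts. In such bulk samples, fewer cells of a type and less RNA per cell cannot be told apart.

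The lysosomal genes were well expressed. All 37 had a mean above the filter of 1 FPKM, so none was left out of the test. Mean levels ran from 4.03 FPKM for Arsb to 1993 FPKM for Psap, with a median of 55.9 FPKM, above that of 92.7% of tested genes. For the 35 members whose values gave whole reads, single libraries held 310 to 114108 reads. Together the 37 genes made up 1.77 and 1.87% of the summed FPKM in R replicates 1 and 2 and 2.22 and 2.23% in vehicle replicates 1 and 2. Psap alone contributed 29.2 to 31.2% of the members' sum in a library.

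**Figure D1:**
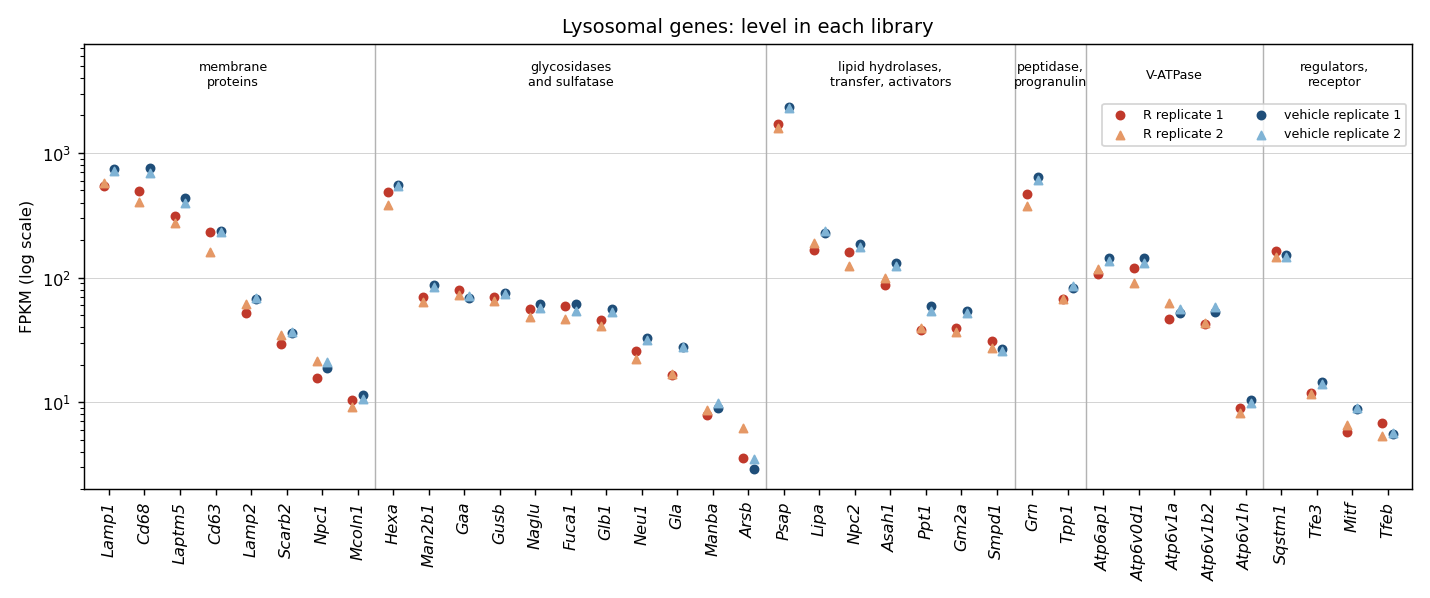
FPKM (log scale) of each of the 37 lysosomal genes in the 4 libraries, grouped by role and ordered by mean level within a role; red and orange points are the R replicates, dark and light blue points the vehicle replicates. Levels span from 4.03 FPKM (Arsb) to 1993 FPKM (Psap) on average, and in 29 genes both R points lie below both vehicle points.

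The comparison of R with vehicle asks how transcript levels in treated cells differ from those under the solvent. Most lysosomal genes were somewhat lower in R, and none passed the test over all genes. Both R libraries lay below both vehicle libraries in 29 of 37 members, where this held for 25.2% of all tested genes. Both R libraries lay above both vehicle libraries in 3 members, Arsb, Gaa and Smpd1, against 22.7% of all tested genes. The groups overlapped in the remaining 5, which were Atp6v1a, Fuca1, Npc1, Tfeb and Sqstm1. The log2 fold change was below 0 in 32 of 37 members, as it was in 50.0% of tested genes. Its median was -0.31 over the members and 0.00 over all tested genes, on the log2(FPKM + 1) scale. The vehicle mean was 1.24 times the R mean in the median member and at most 1.66 times, for Gla.

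By limma, with Benjamini-Hochberg adjustment over the 12176 tested genes, 0 members passed an adjusted p under 0.05, where 1.72% of tested genes passed, 1.37% lower in R and 0.345% higher. An unadjusted p under 0.05 was found for 13 members, all lower in R, where 8.83% of tested genes were lower and 7.16% higher at that level. Among tested genes of at least 20 FPKM, a level that 29 members reached, 56.0% had a log2 fold change below 0 and 30.8% had both R libraries below both vehicle libraries. Of these 29 members, 26 and 24 did so, 12 were lower at an unadjusted p under 0.05 (12.7% of genes at that level) and 0 passed the adjusted test (1.59% lower). Markers of macrophages also lay lower in R (26 of 28 below 0, median log2 fold change -0.56, 4 called lower), and their part in the lower lysosomal values was not tested.

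These counts depended on single libraries. Without R replicate 1, 9 members were called lower and 1 higher, with 5.46% of tested genes called lower. Without R replicate 2, 4 were called lower, against 3.37% of tested genes. Without vehicle replicate 1 or 2, none was called, and 1 member (2.7%) was lower at an unadjusted p under 0.05 in each case, against 4.08 and 5.28% of all tested genes. On the TPM scale, in which every library has the same sum, the median over all tested genes was 0.13 and that over the members -0.18, which left the members 0.30 below the median of all genes, where the deposited scale left them 0.31 below it and quantile normalization 0.23. On that scale 30 members were below 0, with Atp6v1a and Npc1 turning to the other side.

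**Figure D2:**
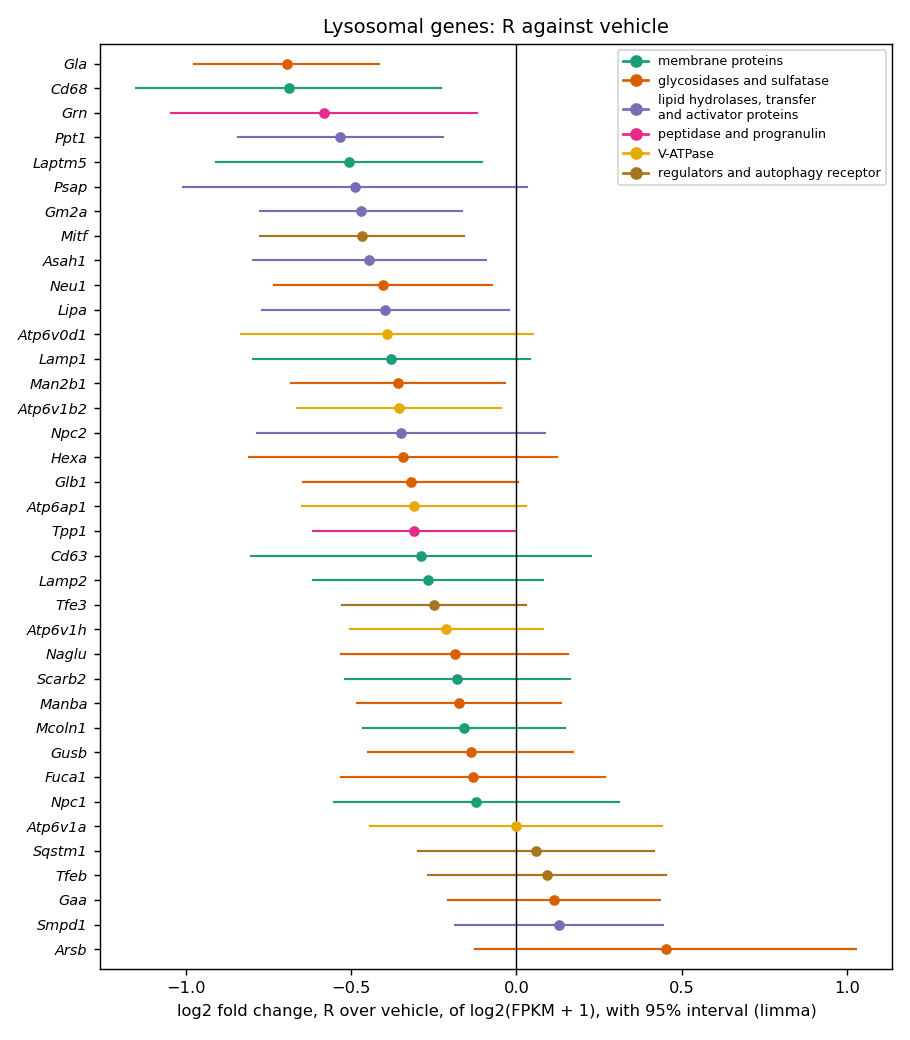
Log2 fold change of each lysosomal gene (R over vehicle, log2(FPKM + 1) scale) with its 95% interval from limma, ordered from lowest to highest and coloured by role. Of 37 intervals 13 exclude 0, all on the lower side, which is the same count as at an unadjusted p under 0.05, and no gene passes after adjustment.

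Membrane proteins form the lysosome's inner coat and its channels and carriers. In the following, values are given for replicates 1 and 2 in that order. The log2 fold change was below 0 in all 8, against 50.0% of all tested genes, with a median of -0.28. In 7 both R libraries lay below both vehicle libraries, against 25.2% of all tested genes. Lamp1 is one of the most abundant proteins of the lysosomal membrane. Among these 8 its transcript was also the most abundant, at 547 and 570 FPKM in R and 739 and 714 FPKM in vehicle. Its R mean was 76.9% of the vehicle mean. Lamp2, its relative with a role in autophagy, was at 51.5 and 61.2 FPKM in R and 67.5 and 68.0 FPKM in vehicle. Lamp1 (log2 fold change -0.38) and Lamp2 (-0.27) lay lower in each R library, without passing the test (limma, adjusted p = 0.355 and adjusted p = 0.427).

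Cd68 and Laptm5 differed most among the membrane proteins, and both are known as proteins of blood cells, Cd68 above all of macrophages. Cd68 was at 492 and 406 FPKM in R and 753 and 691 FPKM in vehicle. The vehicle mean was 1.61-fold higher, with a log2 fold change of -0.69 (SE 0.187; limma, adjusted p = 0.157). Laptm5, which promotes lysosomal breakdown of immune receptors, was at 309 and 275 FPKM in R and 432 and 398 FPKM in vehicle, a log2 fold change of -0.51 (SE 0.163; limma, adjusted p = 0.22). The 28 macrophage and monocyte markers ranged in log2 fold change from -1.90 to 0.23, with a median of -0.56. Without Cd68 and Laptm5, the other 35 members had a median of -0.31. Of these, 30 were below 0 and 27 had both R libraries below both vehicle libraries, against 50.0 and 25.2% of all tested genes. Leaving out 2 of 37 genes does not measure the part of macrophage transcripts in the other members, which was not tested.

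The remaining membrane proteins differed less than their R replicates did or by a similar amount. Cd63, a tetraspanin of late endosomes and lysosomes, was at 231 and 160 FPKM in R and 238 and 233 FPKM in vehicle, so that R replicate 1 lay close to the vehicle libraries and R replicate 2 apart from them. Scarb2, the receptor that brings glucocerebrosidase to the lysosome, had a log2 fold change of -0.18. Mcoln1, the TRPML1 channel that releases calcium from lysosomes, was the least abundant of the group, at 10.4 and 9.20 FPKM in R and 11.4 and 10.7 FPKM in vehicle. Npc1, which exports cholesterol from the lysosome, was at 15.5 and 21.2 FPKM in R and 18.7 and 21.1 FPKM in vehicle, with overlapping groups.

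Glycosidases remove sugars from glycoproteins, glycolipids and proteoglycans, and deficiency of one of them underlies many lysosomal storage diseases. Of the 11 genes of this group, which includes the sulfatase Arsb, 9 had log2 fold changes below 0, and the median was -0.19. Both R libraries lay below both vehicle libraries in 8 and above them in 2, against 25.2 and 22.7% of all tested genes. Gla encodes alpha-galactosidase A, the enzyme missing in Fabry disease, and had the smallest p of all 37 members. It was at 16.6 and 16.7 FPKM in R and 27.6 and 27.5 FPKM in vehicle, from 988 to 1613 reads per library. The replicates of each group were nearly equal, the R mean was 60.3% of the vehicle mean, and the log2 fold change was -0.70 (SE 0.114). Its adjusted p of 0.0516 in limma lay just above the threshold. Over 14 alternatives without a replicate block Gla passed in 5, with limma's adjusted p from 0.0249 to 0.384, and it was lower in R in all 14. Those that called it were the filter at 5 FPKM, the length correction, voom, and the fits without R replicate 1 and without R replicate 2.

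Neu1, the lysosomal sialidase, was at 25.9 and 22 FPKM in R and 32.7 and 31.3 FPKM in vehicle, a log2 fold change of -0.41. Man2b1, an acid alpha-mannosidase, was at 69.9 and 63.5 FPKM in R and 87.3 and 84.2 FPKM in vehicle, a log2 fold change of -0.36. Glb1, the beta-galactosidase whose activity is used as a stain for senescent cells, was at 45.9 and 40.7 FPKM in R and 55.9 and 52.5 FPKM in vehicle. Each of these 3 enzymes was lower in both R libraries, without passing the test (limma, adjusted p = 0.23, adjusted p = 0.264 and adjusted p = 0.32). Hexa, the alpha subunit of beta-hexosaminidase and the most abundant glycosidase, was at 486 and 384 FPKM in R and 557 and 540 FPKM in vehicle. The distance between its R replicates was close to the distance between group means.

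Other glycosidases were nearer to the vehicle level. Naglu, Manba and Gusb, which act on heparan sulfate, mannose-containing and glucuronic acid-containing glycans, had log2 fold changes of -0.19, -0.17 and -0.14 without overlap between groups. Fuca1, the alpha-fucosidase, was at 58.7 and 46.6 FPKM in R and 61.1 and 54.0 FPKM in vehicle, with overlap. Gaa, the acid alpha-glucosidase that degrades glycogen, lay the other way, at 79.2 and 72.0 FPKM in R and 68.7 and 70.7 FPKM in vehicle. Arsb, arylsulfatase B, was the least abundant member and the one most above vehicle, at 3.55 and 6.19 FPKM in R and 2.91 and 3.47 FPKM in vehicle. R replicate 1 of Arsb lay next to vehicle replicate 2, so its log2 fold change of 0.45 (SE 0.234; limma, adjusted p = 0.418) rested on R replicate 2, and was 0.12 without that library.

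Among the 7 genes of lipid handling, 4 were lower at an unadjusted p under 0.05, against 8.83% of all tested genes. In 6 of 7 both R libraries lay below both vehicle libraries, against 25.2% of all tested genes, and the median log2 fold change was -0.45. Psap encodes prosaposin, the precursor of the saposins that lift sphingolipids out of membranes for their hydrolases. It was at 1719 and 1598 FPKM in R and 2337 and 2318 FPKM in vehicle, an R mean of 71.3% of vehicle, with a log2 fold change of -0.49 (SE 0.211; limma, adjusted p = 0.339). Gm2a, the activator protein that presents ganglioside GM2 to beta-hexosaminidase, was at 39.4 and 36.4 FPKM in R and 54.0 and 51.8 FPKM in vehicle. Ppt1, which removes palmitate from proteins, was at 37.7 and 39.7 FPKM in R and 59.0 and 54.1 FPKM in vehicle. The log2 fold changes of Ppt1 and Gm2a were -0.53 (SE 0.126) and -0.47 (SE 0.124), by limma at adjusted p = 0.119 and adjusted p = 0.149. Leaving out R replicate 2 brought Ppt1 past the threshold and leaving out R replicate 1 brought Gm2a past it, and among the same 14 alternatives without a replicate block no other did so for either. Ppt1 shares 3.51% of its exon bases with Cap1, a gene of the opposite strand at 180.5 FPKM.

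Asah1, the acid ceramidase, was at 87.2 and 99.9 FPKM in R and 131 and 124 FPKM in vehicle. Lipa, the acid lipase that splits cholesteryl esters, was at 165 and 189 FPKM in R and 228 and 238 FPKM in vehicle. Npc2, which hands cholesterol to Npc1, was at 162 and 124 FPKM in R and 185 and 176 FPKM in vehicle. All 3 were lower in each R library, with log2 fold changes of -0.45, -0.40 and -0.35. Smpd1, the acid sphingomyelinase, was the exception, at 30.8 and 27.1 FPKM in R and 26.8 and 25.8 FPKM in vehicle (log2 fold change 0.13, SE 0.128). Of the 28 macrophage and monocyte markers, 21 had both R libraries below both vehicle libraries and 1 had both above. Their part in the values of these lipid genes was not tested.

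Tpp1 and Grn are both linked to neuronal ceroid lipofuscinosis, Tpp1 as a tripeptidyl peptidase and Grn as progranulin, a secreted precursor that is cut into granulins in lysosomes. Grn was at 465 and 375 FPKM in R and 647 and 605 FPKM in vehicle, an R mean of 67.1% of vehicle and a log2 fold change of -0.58 (SE 0.188; limma, adjusted p = 0.22). Tpp1 was at 67.2 and 67.7 FPKM in R and 82.6 and 85.0 FPKM in vehicle, a log2 fold change of -0.31 (SE 0.125; limma, adjusted p = 0.31). In both genes the R libraries lay below the vehicle libraries.

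The V-ATPase members cover the catalytic and regulatory parts of the V1 head, a subunit of the membrane-bound V0 part and an accessory protein. Atp6v1b2, a V1 subunit, was at 42.3 and 43.4 FPKM in R and 52.7 and 57.6 FPKM in vehicle, a log2 fold change of -0.35 (SE 0.125; limma, adjusted p = 0.252). Atp6ap1, the accessory protein and the most abundant of the group, was at 107 and 116 FPKM in R and 143 and 135 FPKM in vehicle. Atp6v0d1, the V0 subunit d1, was at 120 and 91.1 FPKM in R and 144 and 131 FPKM in vehicle. Those 3 were lower in both R libraries, with R means of 80.5, 77.7 and 76.7% of vehicle for Atp6ap1, Atp6v1b2 and Atp6v0d1. Atp6v1h, a regulatory V1 subunit, was the least abundant, at 8.96 and 8.25 FPKM in R and 10.3 and 9.89 FPKM in vehicle. Atp6v1a, which carries the catalytic site, was at 46.2 and 63.0 FPKM in R and 51.7 and 56.4 FPKM in vehicle, so its R replicates lay on both sides of the vehicle libraries. The log2 fold change of Atp6v1a was -0.00 with a 95% interval of -0.44 to 0.44, an interval that holds the values of the other 4 subunits.

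The transcription factors known to control lysosomal genes lay on both sides of 0, and none passed the test. Mitf, the family member best known from melanocytes and osteoclasts, was at 5.70 and 6.59 FPKM in R and 8.75 and 8.98 FPKM in vehicle, an R mean of 69.4% of vehicle (log2 fold change -0.47, SE 0.125; limma, adjusted p = 0.154). Tfe3 was at 11.8 and 11.7 FPKM in R and 14.4 and 13.9 FPKM in vehicle (log2 fold change -0.25, SE 0.113; limma, adjusted p = 0.361). Tfeb was at 6.80 and 5.30 FPKM in R and 5.55 and 5.60 FPKM in vehicle, with overlap and a log2 fold change of 0.09 (SE 0.146). Sqstm1, the p62 receptor that brings ubiquitin-tagged cargo to autophagosomes, was at 164 and 145 FPKM in R and 151 and 146 FPKM in vehicle, with overlap and a log2 fold change of 0.06 (SE 0.145). Transcript levels say nothing of the location of these factors in the cell, which was not measured.

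The promoter windows of RefSeq (GRCm38.p6), from 250 bases before to 50 after a gene's start, were available for 33 of the 37 members and are shown because the TFEB family is known to act on lysosomal genes through such E-boxes. The palindrome CACGTG, which reads the same on both strands, was found in windows of 8 members, Atp6v0d1, Atp6v1a, Gaa, Gla, Glb1, Lamp1, Mcoln1 and Naglu. That is 24.2% of members, where 8.09% of all 27025 genes with a window hold it. The longer palindrome TCACGTGA, which contains the first, was found in 4 members, Atp6v0d1, Atp6v1a, Gla and Mcoln1, or 12.1%, against 1.12% of genes. GTCACGTGAC, which contains both, was found in 0 of the 33 and in 0.370% of genes. Below, each line gives an E-box in capitals with the bases around it, 5′ to 3′ on the strand of the gene, first base and last base counted from the gene's start.
Gla, -239 to -210, chrX:134601215-134601244 (minus strand): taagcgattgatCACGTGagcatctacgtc
Gla, -206 to -177, chrX:134601182-134601211 (minus strand): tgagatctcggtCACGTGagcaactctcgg
Lamp1, -73 to -1, chr8:13159088-13159160 (plus strand): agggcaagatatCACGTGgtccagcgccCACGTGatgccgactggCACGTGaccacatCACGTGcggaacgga
Mcoln1, -83 to -54, chr8:3500436-3500465 (plus strand): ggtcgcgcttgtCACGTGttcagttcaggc
Mcoln1, -57 to -28, chr8:3500462-3500491 (plus strand): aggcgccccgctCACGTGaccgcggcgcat
Atp6v1a, -143 to -114, chr16:44139373-44139402 (minus strand): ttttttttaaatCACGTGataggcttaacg
Glb1, -60 to -31, chr9:114401018-114401047 (plus strand): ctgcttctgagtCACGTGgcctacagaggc
Naglu, -85 to -56, chr11:101070009-101070038 (plus strand): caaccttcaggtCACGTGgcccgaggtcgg
Gaa, -152 to -123, chr11:119267811-119267840 (plus strand): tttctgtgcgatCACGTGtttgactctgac

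The Lamp1 promoter held 4 E-boxes, the first at position -61, and Gla and Mcoln1 held 2 each. In GENCODE M21 both Gla stretches lie in annotated exons of Hnrnph2, a gene read in the opposite direction, and the Mcoln1 and Naglu stretches reach into exons of these genes themselves. In Atp6v0d1 the E-box spans the start, from position -3. The 8 members with an E-box had log2 fold changes from -0.70 (Gla) to 0.11 (Gaa), with a median of -0.25 and 7 below 0. The 25 without one in the window had a median of -0.31, with 21 below 0. A match in these letters is a description of the sequence and not evidence of binding.

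Gene length went with the difference between replicates in both groups, and this bears on how precisely each member was measured. The ratio of the higher to the lower R replicate had a median of 1.14 over the members and reached 1.74 for Arsb, whereas that of the vehicle replicates had a median of 1.05 and reached 1.19. In 32 of 37 members the R replicates lay further apart than the vehicle replicates. Of the 16 members longer than 5 kb over annotated exons, 10 were higher in R replicate 2 than in R replicate 1, among them Arsb, Atp6v1a, Npc1, Scarb2 and Lamp2. Of the 21 shorter members 5 were. Across the 37 members, Spearman's rho between length and the log2 ratio of R replicate 2 to replicate 1 was 0.49, and across 12173 tested genes it was 0.54. For vehicle replicate 2 to replicate 1, rho was 0.56 across the members and 0.38 across those genes. These are correlations across genes of the same libraries, and genes are not independent replicates. Cd63, Npc2, Atp6v0d1 and Hexa lay lowest in R replicate 2 relative to replicate 1, with log2 ratios of -0.52, -0.38, -0.40 and -0.34. After a correction for this length trend 2 members, Gla and Cd68, passed (limma, adjusted p = 0.025 and adjusted p = 0.0258), 20 were lower at an unadjusted p under 0.05, and the median was -0.31. Under that correction 2.87% of all tested genes were called lower and 11.7% were lower at an unadjusted p under 0.05.

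**Figure D3:**
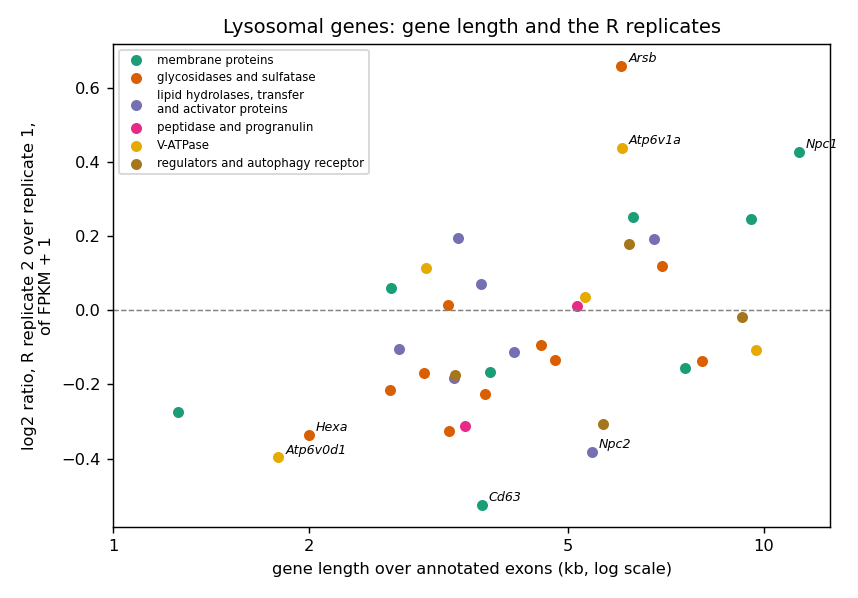
Gene length over annotated exons (kb, log scale) against the log2 ratio of R replicate 2 to R replicate 1 (FPKM + 1) for the 37 lysosomal genes, coloured by role; genes more than 0.33 from 0 are named. Spearman's rho is 0.49, and for the vehicle replicates, which are not drawn, it is 0.56. Arsb, Atp6v1a and Npc1 lie highest and Cd63 lowest.

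More abundant members lay lower relative to vehicle. Spearman's rho between the mean level and the log2 fold change was -0.43 over the 37 members and -0.09 over all 12176 tested genes. The members of at least 20 FPKM had a median log2 fold change of -0.35, where all 2703 tested genes at that level had a median of -0.04.

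Further genes of the pathway, listed by role, were read in the same fit. Lists that make up the organelle itself had medians below 0, and lists of its delivery and control had medians near 0. The lists were chosen with earlier results of these data known, so this division is a description. Of 14 tested V-ATPase subunits outside the member list, 11 had log2 fold changes below 0 (median -0.20), 0 passed over all genes, and 4 were lower at an unadjusted p under 0.05 with 0 higher. For this and the following lists, the shares of all tested genes at that level were 8.83% lower and 7.16% higher, and 1.37% were called lower. Atp6v0c, the proton-carrying ring subunit, had the smallest p, at 31.7 and 33.8 FPKM in R and 49.0 and 49.5 FPKM in vehicle (log2 fold change -0.57, SE 0.121; limma, adjusted p = 0.0938). It passed in 3 of the 14 alternatives without a block, with adjusted p from 0.0304 to 0.789. Of 30 further hydrolases and activators 21 were below 0 (median -0.15), 0 passed, and 6 were lower (20% of the list, against 8.83% of all tested genes) and 0 higher at an unadjusted p under 0.05. Lgmn, the asparagine-specific protease legumain, led them at 378 and 320 FPKM in R and 604 and 588 FPKM in vehicle (log2 fold change -0.78, SE 0.174; limma, adjusted p = 0.108). In 4 of these 14 Lgmn passed, with adjusted p from 0.0182 to 0.947.

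Of 25 further lysosomal membrane proteins 18 were below 0 (median -0.16). At an unadjusted p under 0.05, 4 were lower (16% of the list, against 8.83% of all tested genes) and 0 higher. After adjustment 1 was called lower (4% of the list, against 1.37%). This was Mcoln2, a relative of Mcoln1 in the TRPML channel family that is expressed in immune cells. Mcoln2 was at 5.77 and 5.73 FPKM in R and 11.3 and 12.2 FPKM in vehicle, with a log2 fold change of -0.92 (SE 0.118; limma, adjusted p = 0.0253). It passed in 11 of the 14 alternatives without a block, with adjusted p from 0.0169 to 0.126, and the call was lost on the TPM scale (adjusted p = 0.0708), without a filter (adjusted p = 0.126) and without vehicle replicate 2 (adjusted p = 0.06). The difference between Mcoln2 and Mcoln1 in their response was not tested.

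Delivery and nutrient-sensing genes were spread on both sides of 0. Of 11 genes of the mannose 6-phosphate and sortilin routes 5 were below 0 (median 0.01), and 0 passed, with 0 at an unadjusted p under 0.05. Igf2r, the large mannose 6-phosphate receptor, had the smallest p and lay above vehicle, at 28.6 and 41.6 FPKM in R and 22.2 and 28.1 FPKM in vehicle (limma, adjusted p = 0.384). The nutrient-sensing list held the mTORC1 and Rag GTPase machinery together with the transcription factors Tfec and Zkscan3. Of its 19 tested genes 9 were below 0 (median 0.02), and 0 passed. At an unadjusted p under 0.05, 5 were lower (26.3% of the list, against 8.83% of all tested genes) and 0 higher. These 5, named after their values were seen, were Tfec, Rragc, Fnip2, Rragd and Lamtor3. Tfec, the fourth member of the TFEB family, had the smallest p and was at 3.21 and 3.09 FPKM in R and 5.17 and 4.74 FPKM in vehicle (log2 fold change -0.52, SE 0.124; limma, adjusted p = 0.122). Rragc, a Rag GTPase that recruits mTORC1 and TFEB to the lysosome, was at 66.0 and 61.2 FPKM in R and 92.7 and 91.5 FPKM in vehicle (log2 fold change -0.53; limma, adjusted p = 0.125).

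Of 17 autophagy receptors, ATG8 proteins and autophagy factors 9 were below 0 (median -0.04), 0 passed, and 1 was lower at an unadjusted p under 0.05. This was Atg5, which conjugates ATG8 proteins to membranes, at 17.2 and 17.0 FPKM in R and 22.6 and 21.5 FPKM in vehicle (limma, adjusted p = 0.228). Sqstm1 is also a target of the stress factor Nrf2, and of 7 other tested Nrf2 targets 3 were below 0 (median 0.03), with 0 passing and 0 at an unadjusted p under 0.05. Hmox1, heme oxygenase 1, had the smallest p of these (limma, adjusted p = 0.333). By comparison the macrophage markers had a median of -0.56 and the mesenchymal stromal cell markers one of 0.19 (20 tested, 6 below 0, 3 called lower). Differences between these lists were not tested.

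**Figure D4:**
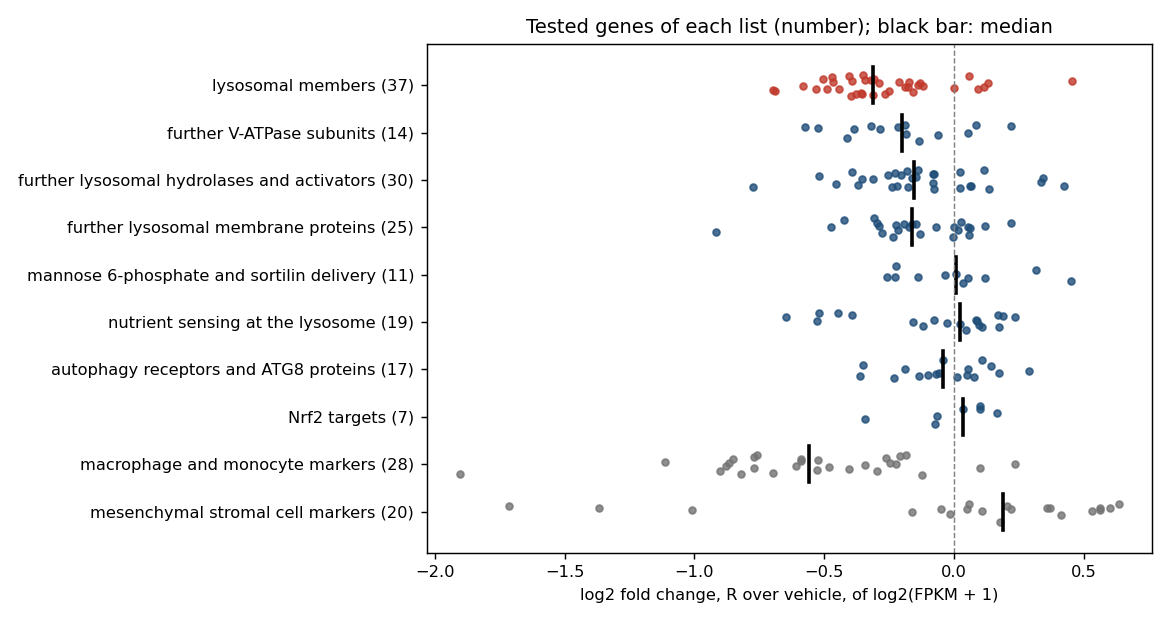
Log2 fold change (R over vehicle, log2(FPKM + 1) scale) of each tested gene of the 37 lysosomal members (red), 7 further lists (blue) and 2 marker lists (grey), with the number tested in parentheses and the median as a black bar; vertical scatter within a row has no meaning. The medians are -0.31 for the members, -0.20, -0.15 and -0.16 for further V-ATPase, hydrolase and membrane genes, near 0 for the other 4 lists, and -0.56 and 0.19 for macrophage and stromal markers.

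Values cover whole genes over annotated exons. In the GRCm38 annotation of GENCODE M21, Gla (ENSMUSG00000031266) spans positions 134588149 to 134601125 of chromosome X on the minus strand, Cd68 (ENSMUSG00000018774) 69664213 to 69666153 of chromosome 11 on the minus strand and Grn (ENSMUSG00000034708) 102430315 to 102437048 of chromosome 11 on the plus strand. Ppt1 (ENSMUSG00000028657) spans 122836242 to 122859175 of chromosome 4, Psap (ENSMUSG00000004207) 60277627 to 60302597 of chromosome 10 and Mitf (ENSMUSG00000035158) 97807052 to 98021349 of chromosome 6, all 3 on the plus strand. Exon bases are shared with another gene in 9 members, and by more than 10% in 3, Arsb, Hexa and Sqstm1. The partners of these 3, all on the opposite strand, had mean levels of at most 0.809% of the member's. Whether the counting used strand is not given in the sources used here.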

How the data were processed

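RNA sequencing of total RNA gave 1 deposited table with 1 FPKM value per gene and library, per the file headers. The submitters' processing notes name GRCm38, mm10 and edgeR 3.18.1 with no role. For aligner, counting tool and annotation the sources used here give no name. GENCODE M21 gave symbols and exon lengths for 54495 of 54532 genes. FPKM times length gave whole reads, within 0.02, for 96.3 to 96.4% of values above 0, and Lipa and Npc1 were not among them. About 36 reads fall on a gene of 2 kb at 1 FPKM.

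A mean of 1 FPKM or more was required, which left 12176 genes, tested as log2(FPKM + 1), a scale that understates the change of low genes, in limma 3.58.1 (R 4.3.3). The model held the 2 groups, with a variance trend and Benjamini-Hochberg adjustment over all tested genes, threshold 0.05. Every adjusted p is from limma with this adjustment. Standard errors had a median of 0.148, with 2 residual degrees of freedom. Voom in limma used recovered reads over their library totals. The length correction subtracted a loess trend on log2 length per library. The fit was also run on simulated data with log2 changes of 1 to 4, larger than that of any member. It recovered 88% of the changes of 1, and 13 of its 207 calls were false. Changes as small as those of the members were not simulated.

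Members and lists were chosen with earlier results of these data known. Values per library are given for the members with the smallest p, the most and the least abundant of each role and the regulators, and for others by choice. From each further list the called genes and the one with the smallest p are named. Marker lists of 9 osteoclast, 7 B cell, 7 erythroid and 6 endothelial genes were also read. Of these, 5, 3, 0 and 2 reached the filter and were tested. Among the tested ones 1 osteoclast gene, Mmp9, was called higher in R, where 0.345% of all tested genes were. Of the tested B cell and endothelial genes 0 were called, and erythroid genes were too low to be tested.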

Additional observations from a re-analysis of the deposited data

How the results depend on the processing

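The alternatives were pseudocounts of 0.1, 0.5 and 5, no filter or one at 5 FPKM, TPM, quantile normalization, no variance trend, the length correction, voom, a replicate block and leaving out each library. The counts at an unadjusted p and of values below 0 were added after seeing the data. The count of members with a log2 fold change below 0 was 29 to 32 under every alternative, over 35 members in voom, 36 at 5 FPKM and 37 otherwise. The members' median was -0.32 to -0.18 under the 10 alternatives that kept all libraries without a block and -0.31 to -0.28 with 1 library left out. Against a spread of the members' median between replicates of 0.0164 (SD), it moved by more than that on TPM (-0.18), with quantile normalization (-0.22), with voom (-0.27) and without R replicate 2 or vehicle replicate 1, and stayed below 0. Members called lower were 1 with the filter at 5 FPKM, 2 with the length correction, 1 with voom, 0 under the other 7 of these 10, and 0 to 9 with 1 library left out. Members called higher were 0 under these 10 and 0 to 1 with 1 library left out. Members lower at an unadjusted p under 0.05 were 8 on TPM, 20 with the length correction and 1 to 25 with 1 library left out, and members higher at that level 0 to 1.

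Over all tested genes limma called 167 lower and 42 higher (79.9% lower, and 68.1% on TPM). These counts were 349 and 223 with the length correction, 218 and 99 with voom, and 193 to 665 and 96 to 438 with 1 library left out. Without a filter they were 0 and 0, with 1504 genes lower and 1263 higher at an unadjusted p under 0.05. With the filter at 5 FPKM 2.18% of tested genes were called lower, against 2.78% of tested members. These shares were 2.87 and 5.41% with the length correction and 1.89 and 2.86% with voom. At an unadjusted p under 0.05, 5.28% of tested genes and 21.6% of members were lower on TPM. With the length correction 11.7 and 54.1% were lower at that level. Leaving out a library leaves 1 sample in its group, which is then assumed to vary like the other group.

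The replicate numbers are not said to pair libraries. Deviations from the group means of same-numbered libraries correlated at 0.353 over genes, from a single degree of freedom per group. With a replicate block 6 members were called lower (Cd68, Gla, Gm2a, Mitf, Neu1 and Ppt1) and 1 higher (Arsb, also the 1 at an unadjusted p under 0.05), and 1009 and 891 of all tested genes.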
